A study of Mus musculus with 2 samples.

Results

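The genes described here encode voltage-gated sodium and calcium channels, the pacemaker (HCN) channels, the sodium leak channel NALCN and the transient receptor potential (TRP) channels, in polyadenylated RNA of the mouse suprachiasmatic nucleus (SCN), the master clock of the mammalian brain. They were chosen by gene name alone, as every gene of the table named Scn with a number and the ending a, a1 or b, every Cacna1, Cacna2d, Cacnb and Cacng gene, every Hcn gene, Nalcn, and every Trpa, Trpc, Trpm and Trpv gene. This gave 66 of 24229 listed genes. The ST library came from mice entrained to a short T-cycle (a repeating light-dark schedule), and the NT library from mice entrained to a normal one. Both groups were wild-type C57BL/6 animals at postnatal day 68, each of 8 mice, first held for 7 days in constant darkness and then entrained for 4 weeks. After 5 more days of darkness, slices of 250 µm were taken at circadian time 4 h. Each group is 1 library. Neither the periods of the T-cycles nor the mice behind each library are known from the labels used, and every value below compares these libraries, not the conditions.

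SCN neurons fire faster by day than by night, and ion channels carry that rhythm. Voltage-gated sodium channels produce the action potential and the persistent current between spikes, NALCN gives a steady sodium leak that depolarises the cell, L-type and T-type calcium channels bring calcium in during the interspike interval, and HCN channels open on hyperpolarisation. Sodium and calcium channels are built on a large pore-forming subunit (the Scn a genes and Cacna1 genes). Auxiliary subunits bind to it (the Scn b, Cacna2d and Cacnb genes). The Cacng genes are counted with these by name, though several act on glutamate receptors. TRP channels are cation channels gated by lipids, calcium, temperature or oxidants.

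The ST library held 19476800 counts and the NT library 24790727. Counts were divided by size factors of 0.890 for ST and 1.12 for NT, and a gene was called measured if its normalised counts averaged 50 or more, which held for 14343 genes and for 50 of the 66 channel genes. Ratios are ST over NT, and each interval is a 95% counting interval of that ratio, which leaves out all variation between animals. All 13 SCN marker genes examined were measured, among them the peptide genes Vip (168 RPKM in ST, 197 in NT) and Avp (656 RPKM in ST, 563 in NT) and the transcription factor gene Six6 (19.8 RPKM in ST, 20.9 in NT). RPKM, deposited by the authors, is the count per kilobase of gene model and 1000000 reads.

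The promoters of 6 members are shown because these genes form the groups that lay to the same side in the results below: the neighbouring genes Cacng7 and Cacng8 and the pacemaker genes Hcn2 and Hcn4, lower in ST, and the calcium channel genes Cacna1b and Cacna1e, higher in ST. The sequences are RefSeq promoters of build GRCm38.p6, from 250 bases before to 50 after the start of the gene, 5′ to 3′, and capitals mark each CpG, the dinucleotide that DNA methylation acts on, since the series concerns DNA methylation.
Cacng7: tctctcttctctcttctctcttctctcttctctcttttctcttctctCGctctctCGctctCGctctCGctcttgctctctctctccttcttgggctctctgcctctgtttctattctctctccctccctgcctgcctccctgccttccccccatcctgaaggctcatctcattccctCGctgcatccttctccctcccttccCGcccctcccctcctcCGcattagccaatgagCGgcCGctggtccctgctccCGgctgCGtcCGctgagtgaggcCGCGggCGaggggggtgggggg
Cacng8: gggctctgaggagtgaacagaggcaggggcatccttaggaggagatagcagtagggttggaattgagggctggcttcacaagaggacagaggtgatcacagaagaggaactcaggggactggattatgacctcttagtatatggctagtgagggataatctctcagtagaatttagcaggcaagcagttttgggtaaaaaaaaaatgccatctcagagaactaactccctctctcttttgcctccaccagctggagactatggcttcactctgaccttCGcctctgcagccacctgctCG
Hcn2: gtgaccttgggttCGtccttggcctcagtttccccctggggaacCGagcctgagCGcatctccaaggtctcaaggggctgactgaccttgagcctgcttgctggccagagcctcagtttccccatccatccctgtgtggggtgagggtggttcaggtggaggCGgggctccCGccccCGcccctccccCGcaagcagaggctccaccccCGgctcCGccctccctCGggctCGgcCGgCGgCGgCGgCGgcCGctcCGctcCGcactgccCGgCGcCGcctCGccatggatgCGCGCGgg
Hcn4: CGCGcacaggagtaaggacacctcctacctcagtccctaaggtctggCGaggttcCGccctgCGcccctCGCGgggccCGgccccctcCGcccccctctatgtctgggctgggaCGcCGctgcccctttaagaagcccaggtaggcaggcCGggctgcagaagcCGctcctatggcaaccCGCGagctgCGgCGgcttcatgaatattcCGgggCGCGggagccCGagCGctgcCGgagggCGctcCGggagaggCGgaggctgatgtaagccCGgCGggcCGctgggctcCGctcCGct
Cacna1b: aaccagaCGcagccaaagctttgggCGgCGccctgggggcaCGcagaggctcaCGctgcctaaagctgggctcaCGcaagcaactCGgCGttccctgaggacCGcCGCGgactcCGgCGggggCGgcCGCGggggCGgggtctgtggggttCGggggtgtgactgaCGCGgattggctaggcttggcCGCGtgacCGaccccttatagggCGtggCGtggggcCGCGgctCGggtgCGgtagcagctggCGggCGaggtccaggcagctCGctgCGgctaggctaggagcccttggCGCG
Cacna1e: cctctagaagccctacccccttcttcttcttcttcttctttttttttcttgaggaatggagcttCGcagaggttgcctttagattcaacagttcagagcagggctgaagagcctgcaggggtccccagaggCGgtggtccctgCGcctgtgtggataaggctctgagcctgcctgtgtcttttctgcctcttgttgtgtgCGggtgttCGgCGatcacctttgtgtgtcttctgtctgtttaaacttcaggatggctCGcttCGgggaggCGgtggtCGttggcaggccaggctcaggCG

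These windows lie at chr7:3332575-3332874, plus strand (Cacng7), chr7:3393792-3394091, plus strand (Cacng8), chr10:79716384-79716683, plus strand (Hcn2), chr9:58822699-58822998, plus strand (Hcn4), chr2:24763103-24763402, minus strand (Cacna1b) and chr1:154725871-154726170, minus strand (Cacna1e). Cacng8 had 2 CpGs in its window and Cacng7 had 15. The window of Hcn2 had 26 and that of Hcn4 had 31. Cacna1b had 35 and Cacna1e 11. The median over all 32851 promoter entries was 7 CpGs. Of the 6 windows, that of Cacng8 alone held fewer CpGs than this median. Promoter entries were found for 50 of the 66 channel genes, 64 entries in all. On either strand, the E-box letters CACGTG stood in 3 of these 64 entries (4.69%, against 7.15% of all entries). The letters TGACGTCA of the cAMP response element stood in 0 of them (1.79% of all entries), and the D-box letters TTATGTAA in 1 (1.56%, against 0.938% of all entries). No methylation was measured in the files used here, and a match describes letters only.

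Most channel genes differed little between ST and NT. Of the 50 measured members 0 were at least 2-fold higher and 0 at least 2-fold lower in ST, against 0.0209% and 0.23% of all measured genes. At 1.5-fold the members again gave 0 higher and 0 lower, against 0.314% and 0.858%. By a smaller rule of 1.2-fold 1 member was higher, against 3.36% of all measured genes, and 2 were lower, the calcium channel subunit gene Cacng8 and the TRP channel gene Trpc5, against 6.1%. Within 1.2-fold lay 47 of the 50, or 94.0%, against 90.5% of all measured genes. The interval lay above 1 for 9 members, or 18%, against 7.81% of all measured genes, and below 1 for 9, or 18%, against 10.2%. With a 99% interval 6 members lay above 1 and 4 below, and Scn8a, Trpm2, Cacna2d2, Cacng8, Hcn2, Cacna2d1, Cacnb3 and Cacnb4 were no longer among them. The share of all measured genes outside 1 at 99% was not computed, so these 2 counts have no background. The members had more reads than the rest, with a median mean normalised count of 1044 against 621, and more reads give narrower intervals. The median log2 ratio was -0.01 over the members and 0.00 over all measured genes, and 25 members were higher and 25 lower. With scaling by total counts the median of the members was 0.00.

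**Figure D1:**
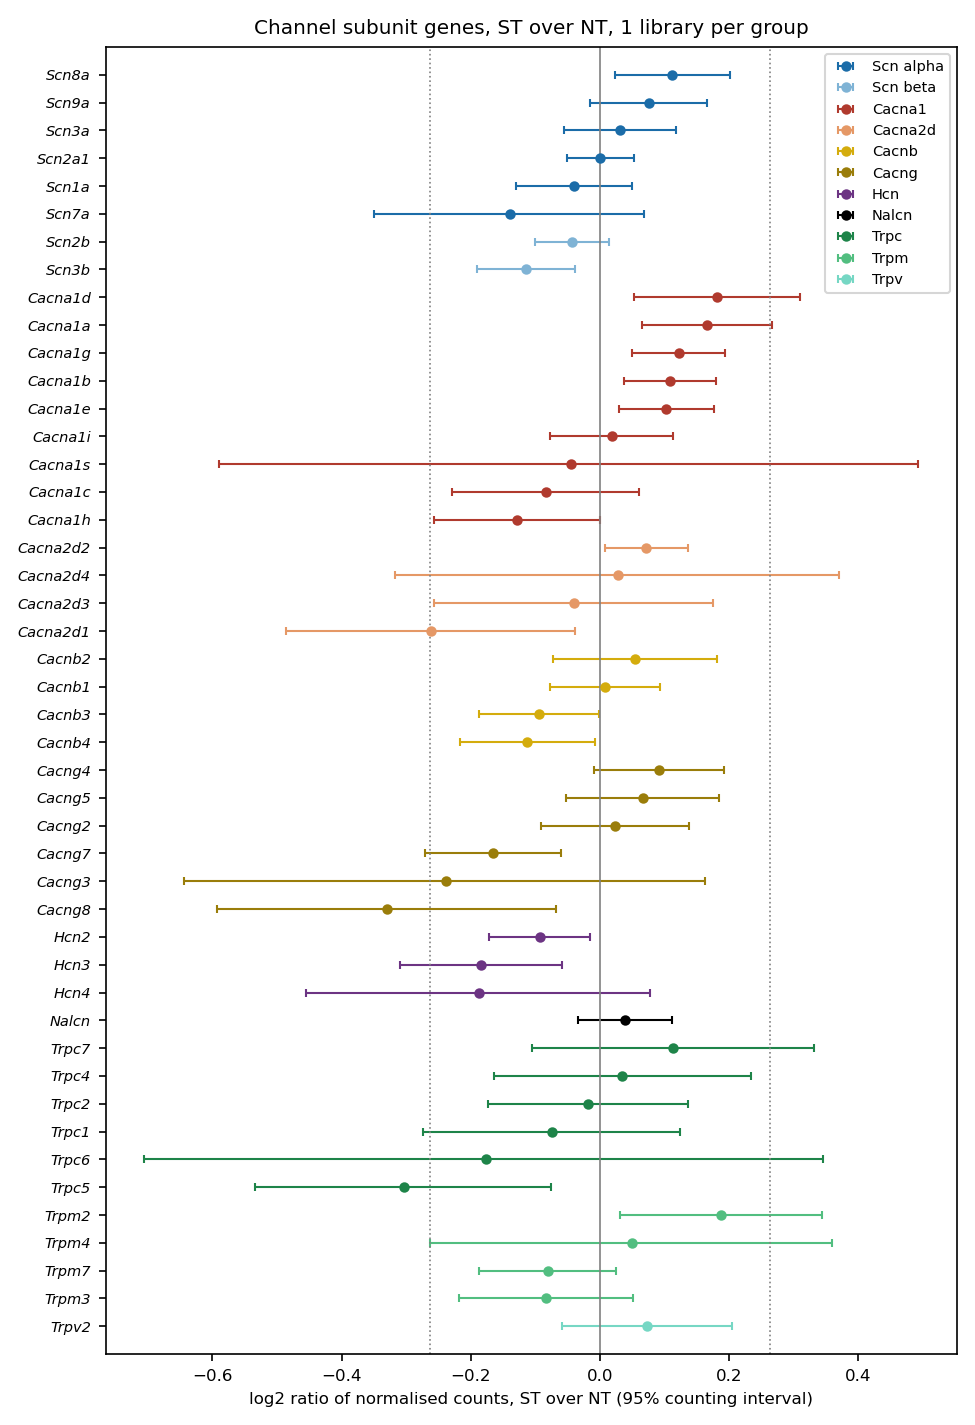
Ratio of normalised counts, ST over NT, on a log2 axis for measured channel genes, by family and in order of ratio within each, with bars for the 95% counting interval and dotted lines at 1.2-fold. It draws 46 of the 50 measured genes. Hcn2, Hcn3 and Hcn4 lie left of 0, Cacng8 at -0.33 is the lowest, and 5 Cacna1 genes have bars wholly to the right of 0.

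By the authors' deposited table, 1 member has a p of at most 0.05, against 2.16% of all listed genes. At an adjusted p of at most 0.05 the authors' deposited table holds 0 members, against 0.202% of all listed genes.

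The main neuronal sodium channel pore genes differed little between the libraries. Scn2a1, the most abundant of them and a channel of axons and dendrites, had 5317 counts in ST and 6709 in NT, or 29.6 RPKM in ST and 29.3 in NT. Its ratio was 1.0 (0.965 to 1.04), the closest to equal of these genes. Scn8a, which supports repetitive firing, had 1925 counts in ST and 2248 in NT, at a ratio of 1.08 (1.02 to 1.15). The next 3 genes had intervals that held 1. Scn1a, the main sodium channel of inhibitory neurons, had 1789 counts in ST and 2321 in NT, at a ratio of 0.973 (0.914 to 1.04). Scn3a, which is strongest before birth in rodent brain, had 1971 counts in ST and 2435 in NT, at 1.02 (0.962 to 1.08). Scn9a, best known from pain-sensing neurons, had 1826 counts in ST and 2187 in NT, at 1.05 (0.99 to 1.12). Scn7a, the sodium-sensing channel of glia and some neurons, had 325 counts in ST and 452 in NT, at 0.908 (0.785 to 1.05). Of these 6 genes 4 were higher and 2 lower, and the interval of Scn8a alone lay outside 1. The sign of Scn2a1 turned to lower when the libraries were scaled to pan-neuronal genes.

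Several sodium channel genes sit side by side. Scn3a, Scn2a1, Scn1a, Scn9a and Scn7a form a cluster on chromosome 2 between 65296320 and 66622971 (mm9), and their log2 ratios ran from -0.14 to 0.08. All 5 intervals held 1 and overlapped each other, and differences between these ratios were not tested. Of these 5 genes only Scn7a does not share reads with other features. Scn10a and Scn11a are sodium channels of sensory neurons. Scn10a had 7 counts in ST and 3 in NT and Scn11a 16 counts in ST and 15 in NT, both below the filter and with intervals that held 1. Scn4a, the skeletal muscle gene, had 1 count in ST and 3 in NT.

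The sodium channel β subunit genes were among the most abundant members per length, and Scn2b and Scn3b were both lower in ST. These single-pass proteins tune gating and act as adhesion molecules. Scn3b had 2408 counts in ST and 3290 in NT, at a ratio of 0.924 (0.876 to 0.974). Scn2b had 4352 counts in ST and 5663 in NT, or 56.5 RPKM in ST and 57.8 in NT, at 0.970 (0.932 to 1.01). The interval of Scn3b lay below 1, and that of Scn2b did too when the libraries were scaled to pan-neuronal genes. Scn4b, which shapes resurgent current, had 40 counts in ST and 57 in NT and fell just short of the filter, with a mean normalised count of 47.8.

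Calcium channel pores divided into 5 genes with an interval above 1 and 4 with an interval that held 1. Over all measured genes 7.81% of intervals lay above 1. The Cacna1 genes had more reads, which narrows intervals, with a median mean normalised count of 1604 against 621. Cacna1d, the L-type channel Cav1.3 that opens at low voltage, had 946 counts in ST and 1053 in NT, or 5.22 RPKM in ST and 4.57 in NT, at a ratio of 1.13 (1.04 to 1.24). Cacna1a, the P/Q-type channel of presynaptic terminals, had 1510 counts in ST and 1699 in NT, or 6.82 RPKM in ST and 6.03 in NT, at 1.12 (1.05 to 1.2). Cacna1g, a T-type channel, had 2907 counts in ST and 3372 in NT, or 14.9 RPKM in ST and 13.6 in NT, at 1.09 (1.04 to 1.14). Cacna1b, the N-type channel and the most abundant of the pores, had 2972 counts in ST and 3481 in NT, or 15.4 RPKM in ST and 14.2 in NT, at 1.08 (1.03 to 1.13). Cacna1e, the R-type channel, had 2742 counts in ST and 3223 in NT, or 11.1 RPKM in ST and 10.3 in NT, at 1.07 (1.02 to 1.13). These 5 ratios lay within a narrow range, from 1.07 to 1.13, and the intervals overlapped each other. Cacna1a, Cacna1b and Cacna1d share reads with other features, as do Cacna1c and Cacna1h, described next.

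The other calcium channel pores did not lie above 1. Cacna1c, the L-type channel Cav1.2, had 687 counts in ST and 919 in NT, or 3.99 RPKM in ST and 4.19 in NT, at a ratio of 0.944 (0.853 to 1.04). Cacna1h, also T-type, had 848 counts in ST and 1170 in NT, or 4.71 RPKM in ST and 5.11 in NT, at 0.915 (0.836 to 1.0). Its interval was wholly below 1 when the libraries were scaled to pan-neuronal genes. Cacna1i, likewise T-type, had 1616 counts in ST and 2014 in NT, at 1.01 (0.948 to 1.08). The L-type genes Cacna1d and Cacna1c thus stood at log2 ratios of 0.18 and -0.08, and the T-type genes Cacna1g, Cacna1i and Cacna1h at 0.12, 0.02 and -0.13. The intervals of Cacna1g and Cacna1h did not overlap, and those of Cacna1d and Cacna1c overlapped slightly. A slight overlap does not show that ratios are alike, and differences between these ratios were not tested. Cacna1s, the skeletal muscle channel, had 53 counts in ST and 69 in NT at 0.970 (0.665 to 1.41). The retinal channel gene Cacna1f had 14 counts in ST and 8 in NT and was below the filter. Summed over the 9 measured pore genes, the ratio was 1.06 (1.04 to 1.08).

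Auxiliary calcium channel genes went either way. Cacna2d2 encodes an α2δ subunit, an extracellular protein that carries channels to the membrane and binds gabapentin. It was by far the most abundant α2δ gene, with 3565 counts in ST and 4282 in NT, or 34.1 RPKM in ST and 32.2 in NT, at a ratio of 1.05 (1.005 to 1.10). Its interval held 1 when the libraries were scaled to pan-neuronal genes. Cacna2d1 had 277 counts in ST and 419 in NT, or 3.65 RPKM in ST and 4.34 in NT, at 0.834 (0.714 to 0.974), just short of the 1.2-fold rule. The intervals of Cacna2d3 (315 counts in ST and 409 in NT) and Cacna2d4 (130 in ST and 161 in NT) held 1. Cacna2d2 made up 78.7% of the summed RPKM of its family in ST and 76.3% in NT, and Cacna2d1 8.42% in ST and 10.3% in NT. By counts per kilobase of all annotated exons the share of Cacna2d1 was 4.51% in ST and 5.56% in NT, since its annotated exons are longer than the gene model behind its RPKM.

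The β subunits are intracellular proteins that bind the calcium channel pore and raise its surface level. They comprise 2 genes with an interval just below 1, against 10.2% of all measured genes, and 2 with an interval that held 1. The Cacnb genes had more reads, which narrows intervals, with a median mean normalised count of 1697 against 621. Cacnb3 had 1625 counts in ST and 2190 in NT, or 26.9 RPKM in ST and 28.4 in NT, at a ratio of 0.937 (0.878 to 0.999). Cacnb4 had 1289 counts in ST and 1759 in NT, or 7.42 RPKM in ST and 7.96 in NT, at 0.925 (0.860 to 0.994). Both intervals held 1 when the libraries were scaled by total counts. Cacnb1 (1990 counts in ST, 2498 in NT) was at 1.01 (0.948 to 1.07) and Cacnb2 (929 in ST, 1129 in NT) at 1.04 (0.951 to 1.13). Cacnb1, Cacnb2 and Cacnb4 share reads with other features.

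The Cacng genes encode the γ subunits, of which several are the transmembrane AMPA receptor regulatory proteins (TARPs) that bring glutamate receptors to synapses. Cacng8 was the lowest measured member of all, with 198 counts in ST and 314 in NT, or 13.3 RPKM in ST and 16.5 in NT, at a ratio of 0.796 (0.663 to 0.954). Its neighbour Cacng7 had 1256 counts in ST and 1778 in NT, or 29.2 RPKM in ST and 32.5 in NT, at 0.892 (0.829 to 0.959). Cacng7 (ENSMUSG00000069806) lies in mm9 on chromosome 7 from 3333055 to 3367810 and Cacng8 (ENSMUSG00000053395) from 3394459 to 3415366, in the same orientation, and Cacng6 after them had 1 count in ST and 0 in NT. A like arrangement on chromosome 11, of Cacng1, Cacng4 and Cacng5, was not lower in ST. There Cacng4 had 1493 counts in ST and 1769 in NT at 1.07 (0.994 to 1.14), and Cacng5 had 1059 counts in ST and 1277 in NT at 1.05 (0.964 to 1.14). Cacng2, the gene of stargazin, had 1117 counts in ST and 1387 in NT at 1.02 (0.939 to 1.10), and Cacng3 had 88 in ST and 131 in NT at 0.848 (0.640 to 1.12). The annotated exons of Cacng8 amount to 663 bases, the shortest of all measured members, and its RPKM rests on a gene model of 766 bases.

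The pacemaker channel genes Hcn2, Hcn3 and Hcn4 were lower in ST. The scalings tried moved every log2 ratio by about 0.01 at most, too little to turn these signs. Hcn2, a channel of intermediate speed that responds to cAMP, had 2276 counts in ST and 3065 in NT, or 36.7 RPKM in ST and 38.8 in NT, at a ratio of 0.937 (0.887 to 0.99). Hcn3 had 886 counts in ST and 1270 in NT, or 11 RPKM in ST and 12.4 in NT, at 0.881 (0.807 to 0.960). Hcn4, the slow channel of the cardiac sinus node, had 201 counts in ST and 289 in NT, or 2.76 RPKM in ST and 3.11 in NT, at 0.878 (0.730 to 1.05). The intervals of Hcn2 and Hcn3 lay below 1, that of Hcn4 held 1, and all 3 overlapped each other. In mm9, Hcn2 (ENSMUSG00000020331) lies on chromosome 10 from 79179379 to 79198853 and Hcn3 (ENSMUSG00000028051) on chromosome 3 from 88949996 to 88964118, where it overlaps Pklr and shares reads.

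Nalcn had 2766 counts in ST and 3399 in NT, or 19.6 RPKM in ST and 18.9 in NT, at a ratio of 1.03 (0.977 to 1.08). Its interval held 1. Nalcn was more abundant per length than every sodium channel pore gene except Scn2a1 in both libraries.

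**Figure D2:**
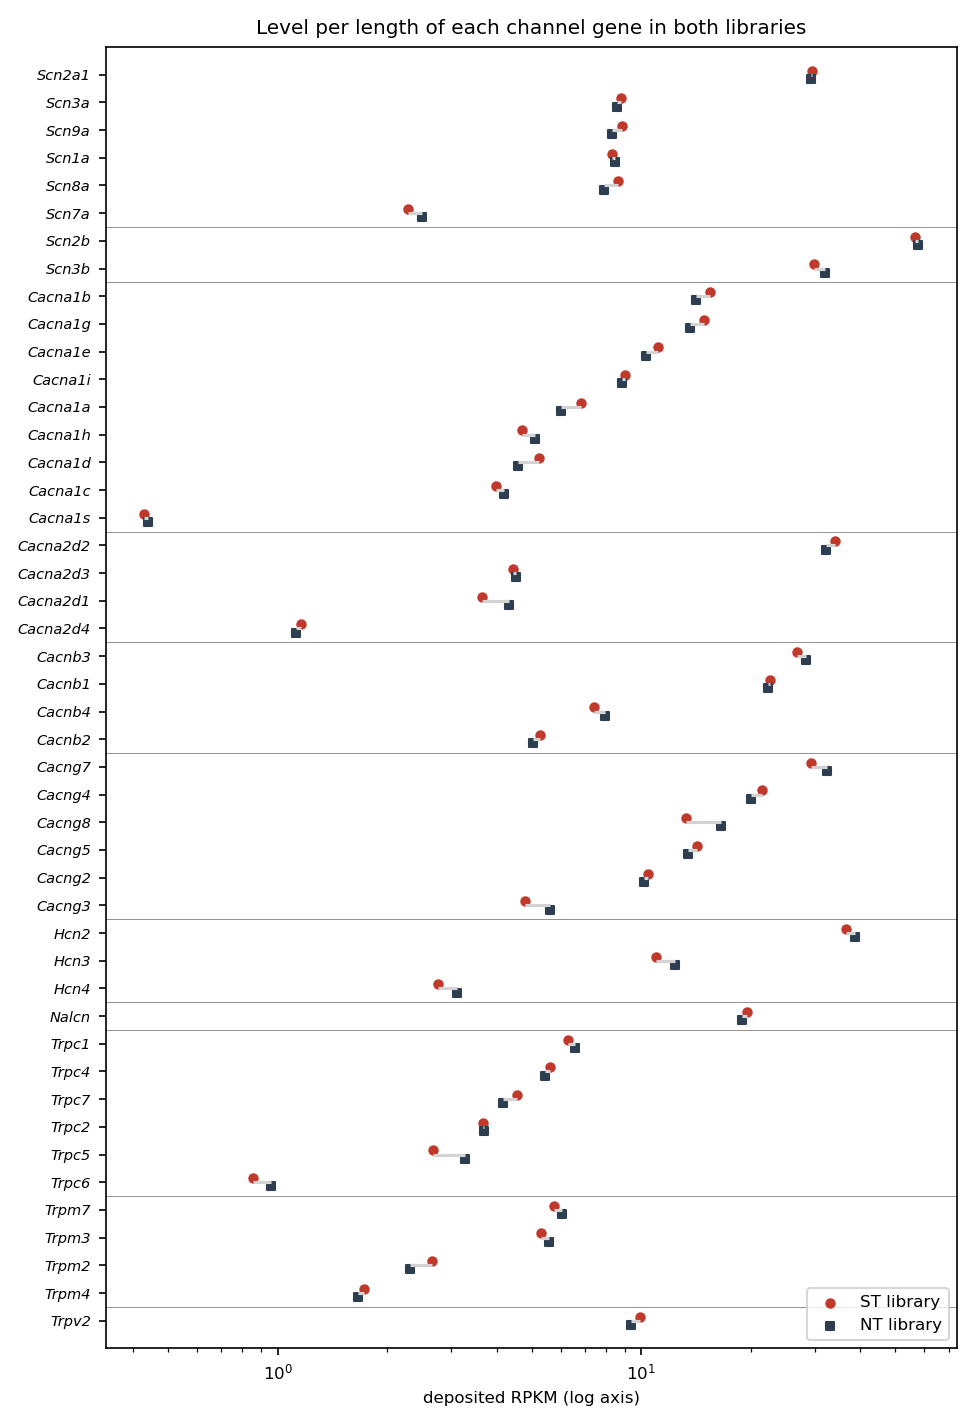
Deposited RPKM on a log axis for measured channel genes, with circles for the ST library and squares for the NT library, by family and in order of level. Of the 46 genes drawn, Scn2b is the highest, at 56.5 RPKM in ST and 57.8 in NT, and Cacna1s the lowest, near 0.43.

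Of the TRP channels 12 were measured, and 1 lay above and 1 below 1 beyond counting error, against 7.81% and 10.2% of all measured genes. Trpm2, a channel gated by ADP-ribose, calcium and warmth, had 636 counts in ST and 705 in NT, or 2.66 RPKM in ST and 2.31 in NT, at a ratio of 1.14 (1.02 to 1.27). Trpc5, a receptor-operated channel of neurons, had 260 counts in ST and 405 in NT, or 2.67 RPKM in ST and 3.27 in NT, at 0.810 (0.691 to 0.949). Trpc5 (ENSMUSG00000041710) lies in mm9 on chromosome X from 140816214 to 141122723. Trpc4, its closest relative, had 379 counts in ST and 467 in NT at 1.02 (0.892 to 1.18), and Trpc1, which assembles with both, had 368 counts in ST and 489 in NT at 0.95 (0.827 to 1.09). The diacylglycerol-gated genes Trpc6 (54 in ST, 77 in NT) and Trpc7 (323 in ST, 377 in NT) had ratios of 0.885 and 1.08, and both intervals held 1. Trpc2, a pheromone transduction channel in mice that shares reads with other features, had 611 counts in ST and 781 in NT, and its interval held 1 too.

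Trpv2 was the most abundant TRP gene per length, with 864 counts in ST and 1037 in NT, or 9.92 RPKM in ST and 9.36 in NT, at a ratio of 1.05 (0.960 to 1.15). Trpm7, a channel fused to a kinase that carries magnesium, had 1267 counts in ST and 1691 in NT, or 5.77 RPKM in ST and 6.05 in NT, at 0.946 (0.879 to 1.02). Trpm3, a heat- and steroid-activated channel, had 794 counts in ST and 1062 in NT at 0.944 (0.860 to 1.04). Trpm4, a calcium-activated channel for monovalent ions, had 159 counts in ST and 194 in NT at 1.03 (0.833 to 1.28). The summed ratio over the 12 TRP genes was 0.995 (0.961 to 1.03).

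The 16 members below the filter had intervals that held 1 in every case. The thermosensors known from sensory neurons were nearly silent, with Trpv1 at 8 counts in each library, Trpm8 at 2 in ST and 6 in NT, and Trpa1 at 6 in ST and 10 in NT. Trpv3 had 24 counts in each library, Trpv4, a channel sensitive to osmotic swelling, 23 in ST and 38 in NT, and Trpv6, an epithelial calcium channel, 33 in ST and 42 in NT. Trpm1, Trpm5 and Trpm6 had 14, 4 and 19 counts in ST and 11, 14 and 29 in NT, and Cacng1 had 3 in ST and 2 in NT. At these counts a difference smaller than about the width of the interval was not detectable, which for Trpv1 ran from 0.413 to 3.86.

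**Figure D3:**
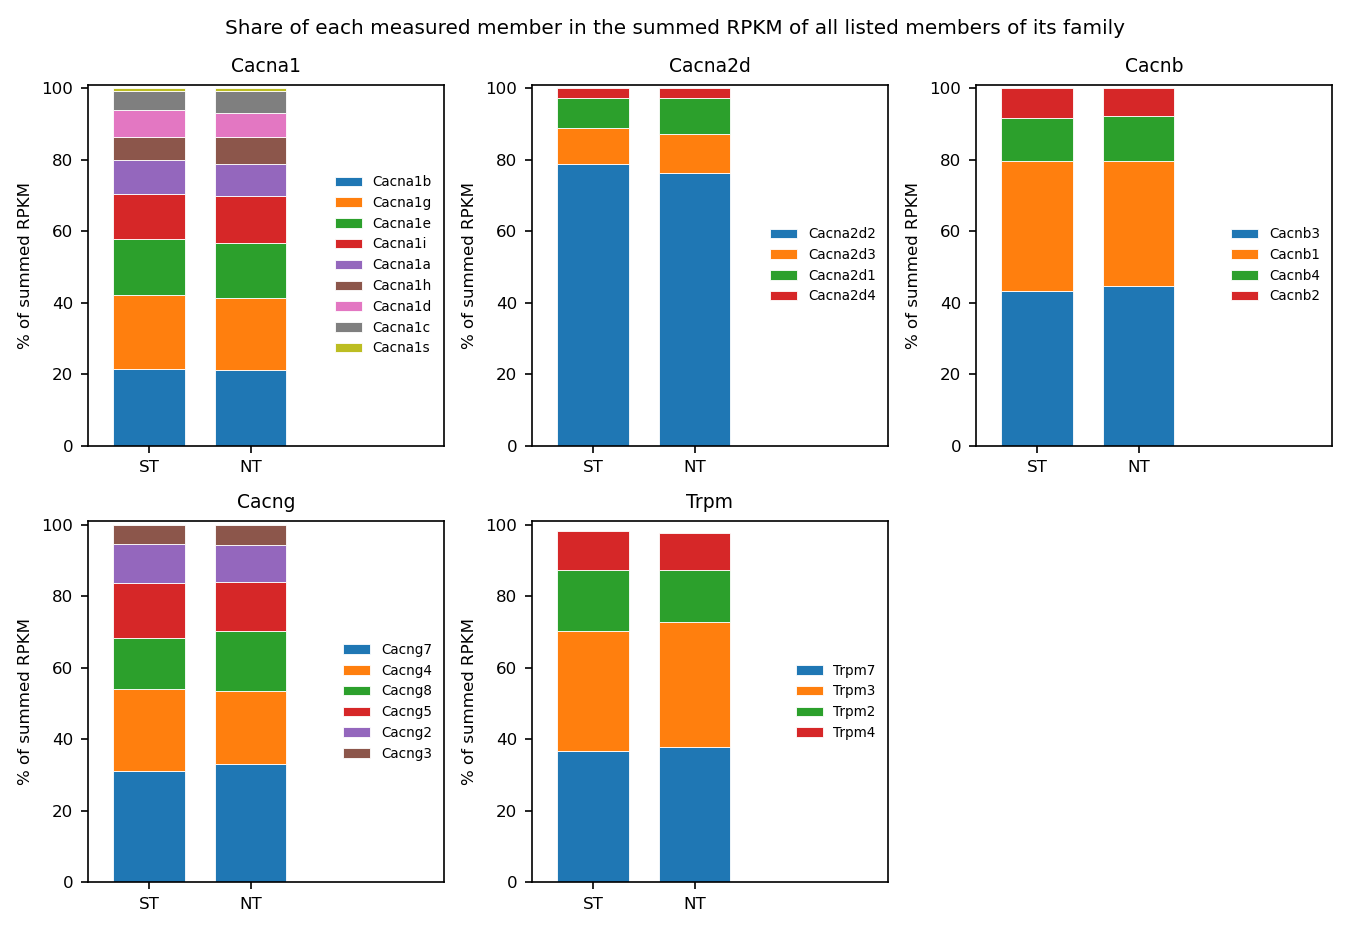
Share of each measured gene in the summed RPKM of all listed genes of its family, with ST left of NT in each of 5 families. Cacna2d2 takes 78.7% of its family in ST and 76.3% in NT, Cacng8 14.2% of the Cacng genes in ST and 16.8% in NT, and bars short of 100% leave out members below the count filter.

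Pore-forming and auxiliary genes of the sodium channels, calcium channels and NALCN were also set side by side. This grouping was made after the values had been seen, and it leaves out the HCN and TRP genes, which form pores too. Of those, Hcn2, Hcn3 and Hcn4 were lower in ST, and the 12 measured TRP genes were split into 6 higher and 6 lower. Of the 17 measured pore genes of sodium channels, calcium channels and NALCN, 12 were higher and 5 lower in ST, with 7 intervals above 1 and 0 below, and a median log2 ratio of 0.04. Of the 17 measured auxiliary genes, 7 were higher and 10 lower, with 1 interval above 1 and 6 below, and a median of -0.04. These 17 include the 6 measured Cacng genes, which hold 2 of the 6 intervals below 1. Several Cacng genes encode TARPs, which act on glutamate receptors, so the count of auxiliary genes goes by name. Over all measured genes 49.2% were higher and 50.8% lower, and 7.81% of intervals lay above 1 and 10.2% below. The measured members as a whole had more reads, which narrows intervals, with a median mean normalised count of 1044 against 621. The summed counts of the pore genes had a ratio of 1.04 (1.03 to 1.06), and those of the auxiliary genes 0.977 (0.961 to 0.994). A shared scaling factor moves these 2 ratios alike, so their order does not depend on it.

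The length of annotated exons, which the choice of genes did not use, differed between these roles. The 17 pore genes have annotated exons of 6554 to 12696 bases, and the auxiliary genes mostly shorter ones, with a median of 4529. Across the 50 measured members, Spearman's rho between exon length and log2 ratio was 0.48, whereas across 14125 measured genes with an annotation it was -0.08. The members share 2 libraries and families share both length and role, so this describes the members and is no test. Of 21 members with at least 8 kilobases of exon, 13 were higher and 8 lower, with a median log2 ratio of 0.03. Of 21 members under 5 kilobases, 7 were higher and 14 lower, with a median of -0.09. The same length classes had medians of 0.00 and 0.00 over all measured genes. Whether length or role goes with the ratio cannot be told apart among these genes.

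**Figure D4:**
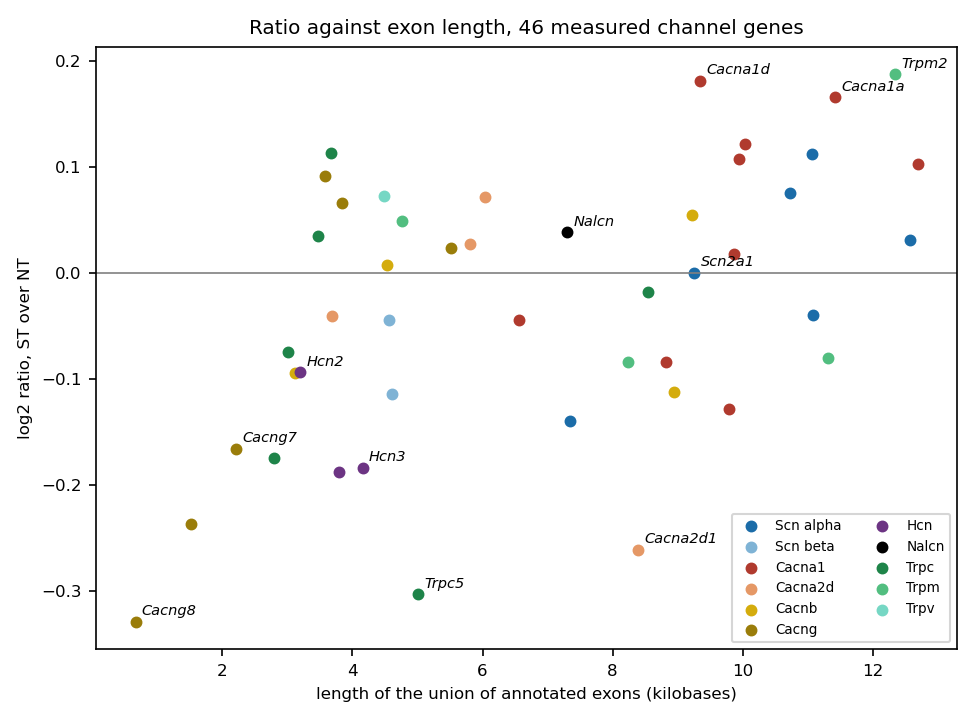
Log2 ratio of ST over NT against the summed length of annotated exons in kilobases for 46 of the 50 measured channel genes, coloured by family. Cacng8 is the shortest and the lowest, Hcn2, Hcn3 and Hcn4 sit together below 0 at 3195 to 4154 bases, and most Cacna1 genes lie above 0.

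Partner proteins of these channels were examined as lists chosen for their roles. For HCN channels, Pex5l, the gene of the auxiliary subunit TRIP8b, had 1110 counts in ST and 1596 in NT at a ratio of 0.878 (0.812 to 0.948), lower like Hcn2 and Hcn3, and it shares reads. The ubiquitin ligase gene Nedd4l was at 1.2 (0.998 to 1.45), and these were the 2 measured genes of that list. For NALCN, the large scaffold genes Unc79 (1317 counts in ST, 1524 in NT) and Unc80 (5214 in ST, 6191 in NT) had ratios of 1.09 (1.01 to 1.18) and 1.06 (1.02 to 1.10), and Fam155a, another subunit, was at 0.986 (0.921 to 1.06).

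For calcium channels, the list of 16 measured partners had a median log2 ratio of 0.01. Of these genes 2 had an interval above 1 and 1 below, against 7.81% and 10.2% of all measured genes. The 2 above belonged to small GTPases of the RGK family, which inhibit high-voltage calcium channels by binding the β subunit. Gem had 203 counts in ST and 187 in NT at a ratio of 1.37 (1.12 to 1.68), and Rrad had 209 in ST and 205 in NT at 1.29 (1.06 to 1.57). Another member, Rem2, had 59 counts in ST and 82 in NT at 0.908 (0.639 to 1.28), and Rem1, with 22 in ST and 12 in NT, was below the filter at 2.31 (1.10 to 5.13). The calmodulin genes Calm2 and Calm3, whose product is the calcium sensor of these channels, were near equal, with Calm2 at 1.02 (0.999 to 1.05) and Calm3 at 1.02 (0.993 to 1.04).

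For sodium channels, 11 partners were measured, with 1 interval above 1 and 2 below and a median log2 ratio of -0.03. Over all measured genes 7.81% of intervals lay above 1 and 10.2% below. The intracellular modulator gene Fgf11 had 152 counts in ST and 247 in NT at a ratio of 0.777 (0.630 to 0.954). Ank2, an ankyrin gene, was at 1.06 (1.03 to 1.09), and Nedd4, a ubiquitin ligase gene, at 0.976 (0.955 to 0.998). Ank3, the gene of ankyrin-G, which anchors sodium channels at the axon initial segment, was at 1.03 (0.996 to 1.07). For TRP channels and related store-operated and lysosomal channels, 18 genes were measured, 17 intervals held 1, and Tpcn1, a calcium-permeable channel of lysosomes, was below it at 0.910 (0.846 to 0.978). Pkd2l1, a channel of cerebrospinal fluid-contacting neurons, had the largest difference of that list, with 49 counts in ST and 87 in NT at 0.711 (0.490 to 1.02).

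Most marker lists of non-neuronal cells were lower in ST beside these values, and the pan-neuronal list was not. The 16 pan-neuronal genes had a median log2 ratio of 0.01, with 9 higher and 7 lower and summed levels of 11234 RPM (counts scaled to 1000000 per library) in ST and 10906 in NT. The 13 SCN marker genes went either way, with 5 higher and 8 lower (median -0.06, 1865 RPM in ST and 1787 in NT). Of their intervals 4 lay above 1 and 3 below, against 7.81% and 10.2% of all measured genes. All 13 oligodendrocyte genes were lower (median -0.28, summed 5239 RPM in ST and 6448 in NT), as were all 8 oligodendrocyte precursor genes (median -0.25, 397 in ST and 478 in NT) and all 12 microglial genes (median -0.23, 366 in ST and 422 in NT). Of 15 endothelial and mural genes 14 were lower (median -0.31, 313 RPM in ST and 387 in NT), as were all 7 measured meningeal genes (median -0.65, 239 RPM in ST and 353 in NT) and 9 of 10 astrocyte genes (median -0.10, 3987 in ST and 4221 in NT). The 3 measured blood genes were lower as well (49.4 RPM in ST and 58.3 in NT for the list). The ependymal and choroid plexus list was level (202 in ST and 203 in NT). Markers of neighbouring regions summed to 838 RPM in ST and 715 in NT. Of its 9 measured genes, however, 4 were higher and 5 lower (median -0.03), with 2 intervals above 1 and 1 below. The higher sum thus did not come from most of its genes. Of the pituitary list 2 genes were measured, 1 higher and 1 lower, and its 3 listed genes summed to 12.7 RPM in ST and 43.9 in NT. Neurod6, of the neighbouring regions, was at 0 in ST, and no other of these markers was at 0 in ST or NT. Their part in the lower channel genes was not tested. In such tissue, fewer cells of a type and less RNA per cell cannot be told apart.

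**Figure D5:**
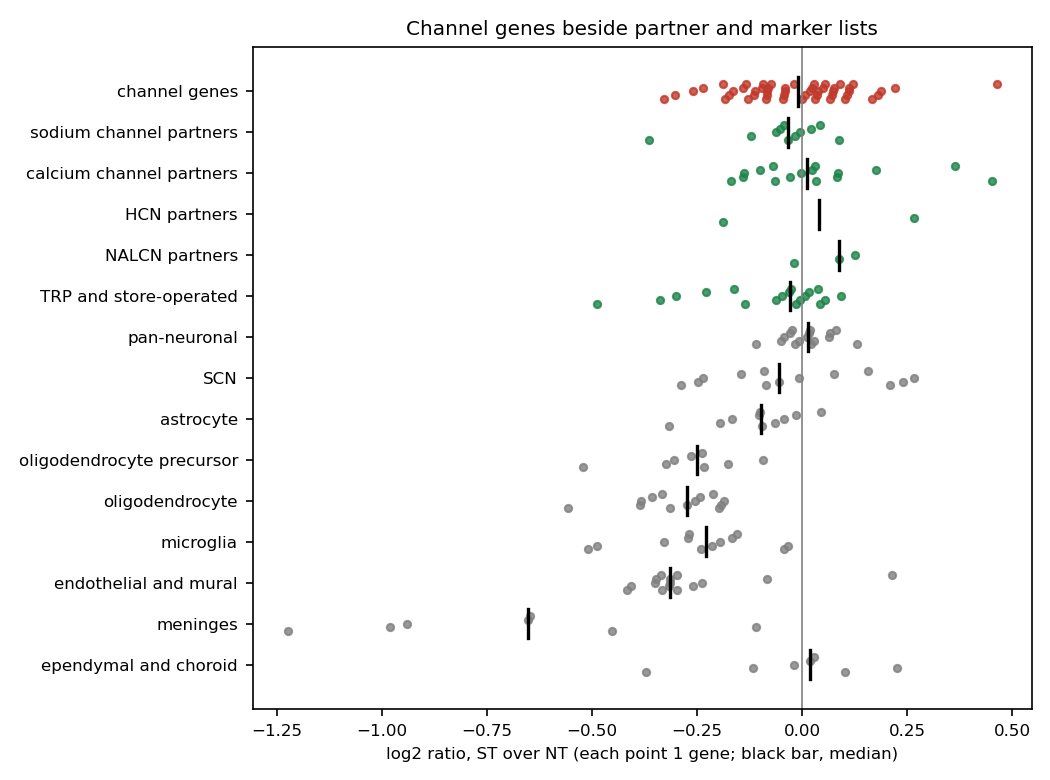
Log2 ratio of ST over NT for each measured gene of the channel families, of lists of channel partners and of cell type markers, with a black bar at each median. Channel genes, their partners and pan-neuronal genes spread around 0, whereas oligodendrocyte, microglial, endothelial and meningeal markers have medians from -0.65 to -0.23.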

How the data were processed

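Polyadenylated RNA of SCN tissue was sequenced in 1 ST and 1 NT library, from 500 ng of RNA per the labels' protocols. The submitters' processing notes list the tools CASAVA 1.8.2, TopHat 1.2 and DESeq and the build mm9 without saying what each did, and no counting tool is stated. The deposited table gives estimated counts per gene, which are not whole for 42.4% of genes in ST and 43.1% in NT (tolerance 1e-06). Genes that have such a count in ST or NT, 20 of the 50 measured members, are said to share reads. They are Scn1a, Scn2a1, Scn3a, Scn9a, Cacna1a, Cacna1b, Cacna1c, Cacna1d, Cacna1h, Cacna2d4, Cacnb1, Cacnb2, Cacnb4, Cacng2, Cacng4, Hcn3, Trpc2, Trpm3, Trpm4 and Trpm7. Some genes are not reported by name here, while counts and medians over families, roles and all members include them. The authors also deposited RPKM and RPM values, and a comparison of ST over NT with a fold change, its log2 and p-values, per the file headers. Another 3 columns of mean values were not used.

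Counts were rounded to whole numbers and scaled by median-of-ratios size factors. Log2 ratios carry a pseudocount of 0.5. Intervals are exact Clopper-Pearson intervals (95%) of the share that ST takes of the summed counts, converted to a ratio with the size factors, and they cover counting error only. With 1 library per group no test was made, and differences have no replicate check. Calculations used Python 3.11.15 with scipy 1.17.1, and edgeR 4.0.16 for TMM factors, and were tested on simulated data. Gene positions are those of the table, and all 66 members matched the GENCODE annotation of NCBIM37 (mm9) in position and strand. Alternatives were other scalings, filters of 10 and 200, whole counts, a pseudocount of 5, other size rules and a 99% interval. Every member could be named, with full values for the 8 highest and 8 lowest by the interval bound nearest to 1, the most abundant of each family, the Hcn genes, Nalcn, and the main Scn and Cacna1 genes. The members, lists and rules were chosen with earlier results of these data known. In partner and marker lists, up to 4 genes were to be named by the size of their ratio, with the most abundant gene, and others named there were chosen after their values were seen.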

Additional observations from a re-analysis of the deposited data

How the results depend on the processing

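No paired analysis was possible because ST and NT are single libraries, which also leaves no replicate to drop. Total-count scaling moved log2 ratios by 0.01, TMM scaling by 0.00005, and scaling to the pan-neuronal list by -0.01. All 250 alternative values of single measured members moved by less than their counting interval, and 0 called members changed direction. The number of members at least 2-fold higher in ST was 1 with a filter of 10 (Cacna1f), and 1 higher and 2 lower passed 1.2-fold by construction of that rule. A 99% interval left 4 members below 1 and 6 above, in place of 9 each, and the share of all measured genes at 99% was not computed. With whole counts only, which leaves out genes that share reads, the median log2 ratio of Cacng was -0.20 in place of -0.07, and the Trpm value was 0.19 in place of -0.02, from 1 gene (Trpm2). Shares within families moved for 20 of 100 values by counts per kilobase of annotated exons. Depth limits the ratio of Hcn4 to an interval of 0.730 to 1.05 and that of Scn2a1 to 0.965 to 1.04.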
